A study of Mus musculus with 10 samples.

Results

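Red cell production in the marrow was followed through 35 erythroid genes, listed by name, in the bone marrow (BM) of irradiated recipients of hematopoietic stem cells (HSCs), taken from fetal livers of vitamin D-deficient, VD(−), or vitamin D-sufficient, VD(+), embryos. Of these members, 34 had a probe set listed for that gene alone, among 19938 genes measured this way, and Ahsp was not analysed here. They were taken in 6 roles, namely 7 genes of the membrane and its skeleton, 7 of surface proteins, 7 of heme synthesis, 5 transcription factors, 2 receptors and 6 measured genes of cytoplasmic and nuclear proteins. All 34 had a mean log2 value above 4.74, the median of all probe sets. For Tmod1, which alone has more than 1 such probe set, the brighter was used.

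Both groups were C57BL6 mice, of both sexes by the labels, with 5 arrays each, of which 3 carried RNA of a single sample and 2 carried a pool. What the groups share is the recipient, a vitamin D-sufficient mouse transplanted after lethal irradiation, and they differ in the diet of the dams whose fetal livers gave the cells. By the methods the donor cells were mixed from male and female embryos, but 7 of the 10 arrays, all 5 of VD(+) among them, showed no Y-linked signal, which goes against both statements on sex. The marrow of a recipient can keep a share of host cells. The labels name BM macrophages in the treatment field and give an age of 8 weeks, which in the methods is the age at transplantation. It cannot be the age at collection, on whose time the sources used here differ. Whether red cells were lysed before the RNA was taken is not given in the sources used here. Nothing says how many mice stand behind a pool or whether those mice were also hybridized singly. If they were, the 5 arrays of a group are not 5 independent samples, and every SE, interval and p below, the exact permutation p included, covers only the spread between arrays.

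Red cells arise from progenitors that first depend on the erythropoietin receptor and the transcription factors GATA1, TAL1 and KLF1. These factors switch on the genes of heme synthesis, of globin and of the membrane skeleton, while the transferrin receptor brings in iron. Late erythroblasts lose the nucleus and most organelles and keep a membrane held by spectrin, ankyrin and band 3. Marrow is a main site of this process in adult mice. In bulk BM, fewer erythroid cells and less RNA per erythroid cell cannot be told apart.

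Motifs near the start sites, which the choice of members did not use, were counted as a description, with no test. RefSeq promoters (build GRCm38.p6) were matched for 27 of the 35 members, and the 250 bases before each start were searched on both strands. The GATA motif, spelled AGATAA or AGATAG or the same with T as first letter, was found for 17 of the 27, or 63.0%, and for 29.7% of 27025 genes in the same table. The CACCC box, spelled CCACCC or CCNCNCCC (spellings that can overlap each other), was found for 20 of them, or 74.1%, against 56.5% of all genes. Both stood in the same promoter for 10 members, or 37.0%, and for 12.1% of all genes. Ppox and Urod held neither. Within the last 100 bases before the start, 40.7% of the members and 12.1% of all genes held the GATA motif. A match describes letters and is not a bound site, and genes with more than 1 start were counted once if any promoter held the motif.

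The last 100 bases before the start are shown for 6 members. Klf1 and Trim58 were the members with the smallest nominal p in the comparison below, Rhd came next, and Alas2, Rhag and Epor stand for heme synthesis, the surface and the receptors. Capitals mark a GATA motif on either strand or a CACCC box (a run rich in G where it lies on the other strand). The stretches are chr8:84901882-84901981 (plus strand), chr11:58640365-58640464 (plus strand), chr4:134864436-134864535 (plus strand), chrX:150547317-150547416 (plus strand), chr17:40811049-40811148 (plus strand) and chr9:21963577-21963676 (minus strand).

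Klf1: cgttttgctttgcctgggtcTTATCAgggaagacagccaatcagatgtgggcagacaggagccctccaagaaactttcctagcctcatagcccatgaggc
Trim58: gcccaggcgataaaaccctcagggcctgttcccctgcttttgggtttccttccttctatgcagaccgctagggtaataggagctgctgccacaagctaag
Rhd: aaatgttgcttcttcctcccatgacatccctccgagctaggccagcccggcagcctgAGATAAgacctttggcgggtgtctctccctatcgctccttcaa
Alas2: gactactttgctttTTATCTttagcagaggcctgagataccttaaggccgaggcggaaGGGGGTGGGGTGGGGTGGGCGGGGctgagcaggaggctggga
Rhag: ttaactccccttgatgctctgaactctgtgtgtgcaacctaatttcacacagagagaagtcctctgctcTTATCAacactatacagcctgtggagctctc
Epor: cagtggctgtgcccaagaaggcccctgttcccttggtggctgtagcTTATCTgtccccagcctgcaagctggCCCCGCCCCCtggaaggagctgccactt

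The GATA motif began 80 bases before the start of Klf1, 43 before that of Rhd, 86 before that of Alas2, 31 before that of Rhag and 54 before that of Epor. In Trim58 it lay 247 bases before the start, outside the stretch shown. CACCC boxes stood in the stretches of Alas2 and Epor and in none of the other 4. Those of Epor matched the spelling CCNCNCCC alone and do not hold CCACCC. Klf1 and Trim58, the members with the highest and the lowest log2 fold change, both hold the GATA motif within 250 bases.

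Some arrays stood apart in signals other than erythroid genes. Y-linked genes were at a mean log2 value of 5.31 to 6.80 in VD(−) replicate 1 and both VD(−) pools and at 2.25 to 2.56 in the other 7 arrays, and Xist was at 7.76 to 9.83 in the former 3 arrays and at 10.08 to 10.33 in the others. Array medians lay between 4.74 and 4.80, and correlations between arrays of the same group were 0.983 to 0.989. Among marrow cells other than the erythroid, 13 of 14 macrophage markers were above 0 in VD(−) less VD(+) (median 0.18, Cd68 0.27 and Vsig4 0.84), 9 of 9 megakaryocyte markers were below 0 (median −0.12, Vwf −0.28 and Itga2b −0.25), and neutrophil markers were split 7 and 7 (median −0.015, Prtn3 0.17 and Ngp −0.077). Of 13 B cell markers 10 were below 0 (median −0.28), 4 of them at a nominal p under 0.05 from limma. Of all genes 2.95% passed it downward. Ms4a1 was at −0.45 and Fcer2a at −0.58 (SE 0.081, adjusted p = 0.0305 from limma). The other 3 markers, Igll1, Vpreb1 and Dntt, were above 0, at 0.54 (SE 0.57), 0.41 (SE 0.60) and 0.26 (SE 0.34), with none at a nominal p. The mean level of the B cell markers was 6.93 to 7.36 in VD(+) and 6.43 to 7.67 in VD(−).

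Whether donor vitamin D status altered erythroid expression in the recipients was asked by setting VD(−) against VD(+) arrays, and the erythroid genes differed little. Log2 fold changes of VD(−) over VD(+) ran from −0.28 for Trim58 to 0.25 for Klf1, with a median of −0.0079 over the 34 members and 0.0010 over all genes. At an adjusted p under 0.05 from limma 0 members passed, where 0.0903% of all genes did, and the lowest adjusted p of a member was 0.634. At a nominal p under 0.05 there were 2, Klf1 higher and Trim58 lower, or 5.88% of the members, where 7.00% of all genes passed, 4.05% upward and 2.95% downward. By the methods' t-test 5 members, or 14.7%, passed a nominal p, where 7.56% of all genes did, and 0 an adjusted p. The 95% interval of the log2 fold change lay within 0.5 of 0 for 33 of 34 members, and for 89.9% of all genes. Only the interval of Trim58, −0.51 to −0.043, reached past that bound.

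**Figure D1:**
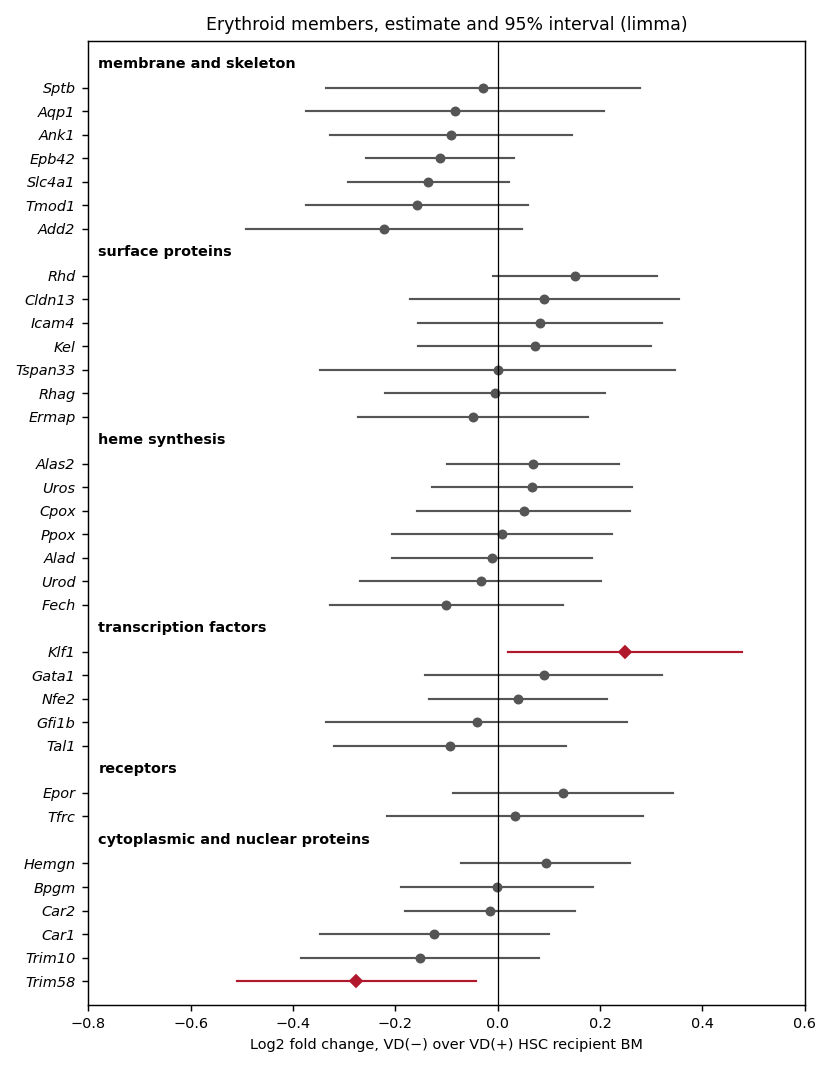
Horizontal axis, log2 fold change (VD(−) over VD(+)) of the 34 members, which are set in rows by their 6 roles. Points are limma estimates and lines 95% intervals, with red diamonds for a nominal p under 0.05, which only Klf1 (0.25) and Trim58 (−0.28) reached.

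Genes of the membrane and its skeleton all had a log2 fold change below 0, and none passed a nominal or an adjusted p in limma. The median of the 7 was −0.11, and −0.13 after cyclic loess and after quantile normalization, where all 7 also lay below 0. Of all genes 9903 of 19938 were below 0 on the deposited scale. Slc4a1 and Epb42 passed a nominal p by the methods' t-test, Slc4a1 also did with a trended and robust spread, and without VD(−) replicate 3 Slc4a1, Epb42 and Add2 did so in limma. Under the 24 alternatives 6 or 7 of them stayed below 0, and the median ran from −0.16 to −0.091.

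Slc4a1, which encodes the anion exchanger band 3, the main anchor of the skeleton, had log2 values of 11.29, 11.13 and 11.19 in VD(+) replicates 1 to 3 and 11.16 and 11.27 in the VD(+) pools. In VD(−) it had 11.10, 10.91 and 11.21 in replicates 1 to 3 and 11.09 and 11.05 in the pools. Only VD(−) replicate 3 lay inside the range of VD(+), and the other 4 lay below it. The log2 fold change was −0.14 (SE 0.071, 95% interval −0.29 to 0.021, adjusted p = 0.746 from limma), and the exact permutation test gave an unadjusted p = 0.0476.

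Sptb, the beta chain of erythroid spectrin, was at 8.17, 7.78 and 7.78 in VD(+) replicates 1 to 3 and 7.80 and 7.91 in the pools, and at 7.74, 7.65 and 8.21 in VD(−) replicates 1 to 3 and 7.57 and 8.12 in the pools. VD(−) spread to both sides of VD(+), with 3 arrays below its range, 1 inside it and 1 above it. Its log2 fold change was −0.029 (95% interval −0.34 to 0.28).

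The other members of this role were close to these. Ank1, the ankyrin that links spectrin to band 3, had a log2 fold change of −0.091 (SE 0.11). Epb42, protein 4.2, which steadies that link, had −0.11 (SE 0.066), and Add2, beta-adducin of the spectrin-actin junctions, had −0.22 (SE 0.12). Tmod1, which caps the actin filaments of the skeleton, had −0.16 (SE 0.098), but its dimmer probe set had 0.25 (SE 0.11, adjusted p = 0.708 from limma), so the 2 probe sets of this gene disagree in direction. Aqp1, the water channel, which endothelium also expresses, had −0.083 (SE 0.13), and of 10 endothelial markers 7 were above 0 (median 0.080, Emcn 0.43 and Pecam1 −0.16, mean level of the list 5.53 to 5.74 in VD(+) and 5.58 to 5.86 in VD(−)). Their part in Aqp1 was not tested.

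Surface proteins showed no shared direction. Rhd, the Rh blood group protein, was at 9.76, 9.73 and 9.91 in VD(+) replicates 1 to 3 and 9.85 and 9.98 in the pools, and at 9.91, 9.92 and 10.12 in VD(−) replicates 1 to 3 and 10.005 and 10.02 in the pools. All 5 VD(−) arrays lay above 4 of the 5 VD(+) arrays, and VD(+) pool 2 overlapped them. The log2 fold change was 0.15 (SE 0.073, 95% interval −0.0091 to 0.31, adjusted p = 0.728 from limma), and the exact permutation test gave an unadjusted p = 0.0317.

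Tspan33, a tetraspanin of erythroid progenitors, was the member nearest to 0. It was at 8.62, 8.04 and 8.46 in VD(+) replicates 1 to 3 and 8.28 and 8.57 in the pools, and at 8.11, 8.22 and 8.87 in VD(−) replicates 1 to 3 and 8.28 and 8.50 in the pools. Its group means were 8.39 each, while its arrays within a group spread widely (SD 0.23 in VD(+) and 0.30 in VD(−)). Rhag, the partner of Rhd in the membrane, had a log2 fold change of −0.0048 (SE 0.097), and the difference between Rhag and Rhd was not tested. Kel, the Kell blood group protein, had 0.072 (SE 0.10), Ermap, which carries the Scianna antigens, −0.048 (SE 0.10), and Icam4, the adhesion molecule of erythroblastic islands, 0.082 (SE 0.11). Cldn13, a claudin of mouse erythroblasts, had 0.091 (SE 0.12). The median of the role was 0.072 and 5 of 7 were above 0, which became 4 of 7 after cyclic loess or quantile normalization.

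**Figure D2:**
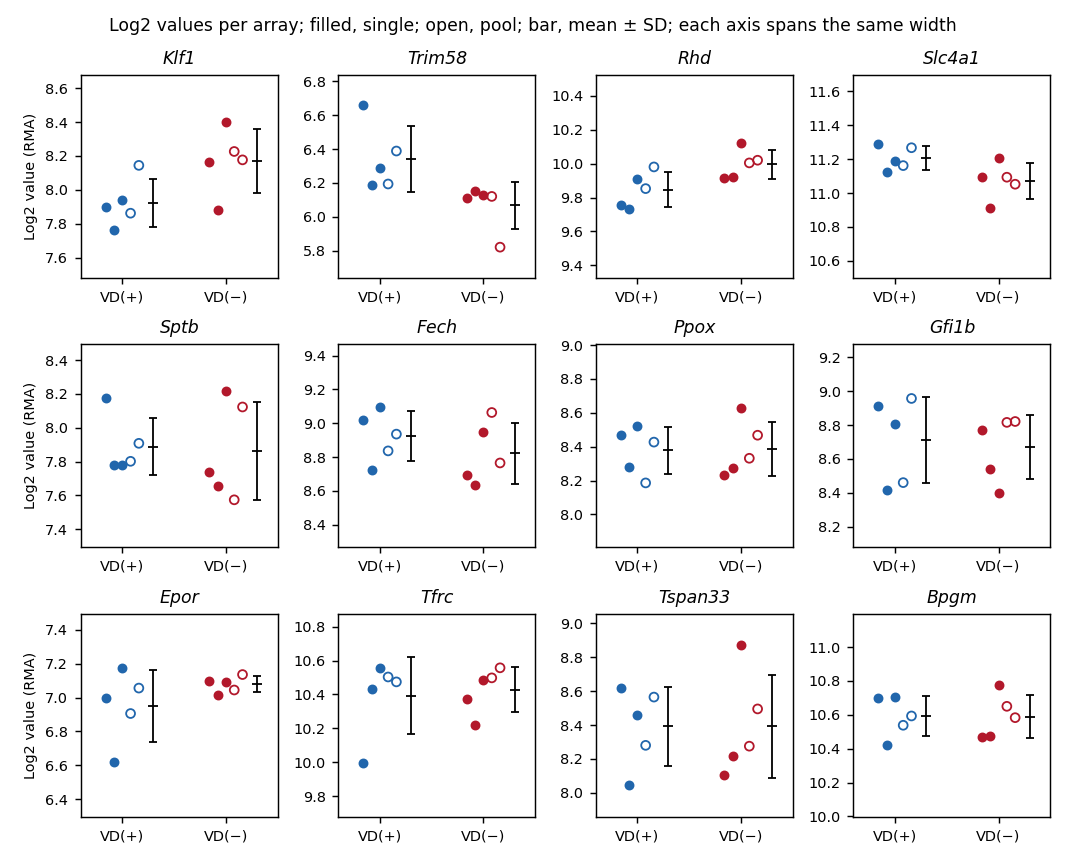
Log2 values of 12 members on each array, with VD(+) in blue and VD(−) in red, filled circles for single samples, open circles for pools and bars for mean ± SD (n = 5 arrays). The groups do not overlap for Trim58 alone, and for Tspan33, Ppox and Bpgm the log2 fold changes are 0.00017, 0.0084 and −0.0016.

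No enzyme of heme synthesis passed a test, from the first step to the last. The pathway starts with Alas2, the erythroid and rate-limiting aminolevulinate synthase, which had log2 values of 10.69 to 11.01 in VD(+) and 10.89 to 11.06 in VD(−) and a log2 fold change of 0.069 (SE 0.076, 95% interval −0.099 to 0.24). Alad, the next enzyme, had −0.011 (SE 0.089), and Uros and Urod, which close and trim the ring, had 0.067 (SE 0.088) and −0.033 (SE 0.11). Cpox and Ppox, the oxidases that follow in mitochondria, had 0.050 (SE 0.095) and 0.0084 (SE 0.097).

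Ppox was at 8.47, 8.28 and 8.52 in VD(+) replicates 1 to 3 and 8.19 and 8.43 in the pools, and at 8.23, 8.27 and 8.63 in VD(−) replicates 1 to 3 and 8.33 and 8.47 in the pools. Fech, ferrochelatase, which puts iron into the ring, had the smallest nominal p of the role and was at 9.02, 8.72 and 9.10 in VD(+) replicates 1 to 3 and 8.84 and 8.94 in the pools. In VD(−) it was at 8.69, 8.64 and 8.95 in replicates 1 to 3 and 9.06 and 8.77 in the pools. The ranges of both genes overlapped between the groups, and the log2 fold change of Fech was −0.10 (SE 0.10, adjusted p = 0.871 from limma). The role had a median of 0.0084 with 4 of 7 above 0, and the median was −0.015 after cyclic loess and −0.012 after quantile normalization. Alas2 lies on the X chromosome, and without the 3 arrays that hold Y-linked signal its log2 fold change was 0.070.

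Of the transcription factors Klf1 alone passed a nominal p. Klf1 is the erythroid Krüppel-like factor that binds CACCC boxes of globin and membrane genes. It was at 7.90, 7.76 and 7.94 in VD(+) replicates 1 to 3 and 7.86 and 8.14 in the pools, and at 8.16, 7.88 and 8.40 in VD(−) replicates 1 to 3 and 8.23 and 8.18 in the pools. Of the VD(−) arrays, 4 lay above all of VD(+), and VD(−) replicate 2 lay inside its range. The log2 fold change was 0.25 (SE 0.10, 95% interval 0.019 to 0.48, a ratio of 1.19), for which limma gave an unadjusted p of 0.0361 and, adjusted, p = 0.673, and the exact permutation test p = 0.0476. Klf1 kept its direction in all 24 alternatives, at 0.19 to 0.32, though several of them leave the fold change as it was and could not change it. The nominal p held in 10 of the 24 and in only 2 of the 10 fits that leave out an array.

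Gfi1b, a repressor needed by erythroid and megakaryocytic cells, was at 8.92, 8.42 and 8.81 in VD(+) replicates 1 to 3 and 8.46 and 8.96 in the pools, and at 8.77, 8.54 and 8.40 in VD(−) replicates 1 to 3 and 8.82 and 8.82 in the pools. Its arrays spread more within a group than the groups differed (log2 fold change −0.041, SE 0.13). Gata1, the X-linked master factor of the lineage, had 0.090 (SE 0.10) and was 0.09 without the arrays that hold Y-linked signal. Nfe2, which drives globin and platelet genes, had 0.040 (SE 0.078), and Tal1, which forms a complex with GATA1, had −0.093 (SE 0.10). Megakaryocytes also express Gata1, Gfi1b, Nfe2 and Tal1, and the mean level of the 9 megakaryocyte markers was 8.41 to 9.07 in VD(+) and 8.40 to 8.65 in VD(−). Their part in these genes was not tested.

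Both receptors overlapped between the groups. Epor, the erythropoietin receptor, was at 6.998, 6.62 and 7.17 in VD(+) replicates 1 to 3 and 6.91 and 7.06 in the pools, and at 7.10, 7.02 and 7.09 in VD(−) replicates 1 to 3 and 7.04 and 7.14 in the pools. The VD(−) arrays all lay within the range of VD(+), and the log2 fold change was 0.13 (SE 0.098, 95% interval −0.088 to 0.34). Tfrc, the transferrin receptor, which other dividing cells express too, was at 9.998, 10.43 and 10.56 in VD(+) replicates 1 to 3 and 10.50 and 10.47 in the pools, and at 10.37, 10.22 and 10.48 in VD(−) replicates 1 to 3 and 10.50 and 10.56 in the pools. VD(+) replicate 1 stood alone at the bottom, and the log2 fold change of Tfrc was 0.034 (SE 0.11). Of 19 cell cycle genes 16 were above 0, with a median of 0.059, Tyms at 0.36 and Mcm5 at 0.16, and a mean level of 8.97 to 9.09 in VD(+) and 9.04 to 9.15 in VD(−), and their part in Tfrc was not tested.

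Among cytoplasmic and nuclear proteins Trim58 had the lowest log2 fold change of all members. Trim58 is a ubiquitin ligase of late erythroblasts that acts on dynein before the nucleus is lost. It was at 6.66, 6.19 and 6.29 in VD(+) replicates 1 to 3 and 6.19 and 6.39 in the pools, and at 6.11, 6.15 and 6.13 in VD(−) replicates 1 to 3 and 6.12 and 5.82 in the pools. It was the only member whose 5 VD(−) arrays all lay below the 5 of VD(+), a pattern of 0.632% of all genes, and 0 members showed the reverse, which 1.09% of all genes did. The gap between the groups was small, since the highest VD(−) array was at 6.15 and the lowest VD(+) array at 6.19.

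The log2 fold change of Trim58 was −0.28 (SE 0.11, 95% interval −0.51 to −0.043, a ratio of 0.826), with an unadjusted p of 0.0246 and an adjusted p of 0.634 from limma. The exact permutation test gave p = 0.00794, the smallest it can give with 5 arrays against 5. Trim58 kept its direction in all 24 alternatives, at −0.32 to −0.20, though several of them leave the fold change as it was and could not change it. The nominal p held in 19 of the 24. Of the fits that leave out an array, it was lost in the one without VD(−) pool 2, where the log2 fold change was −0.21.

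Bpgm, which makes the 2,3-bisphosphoglycerate that loosens oxygen from hemoglobin, was nearest to 0 in its role. It was at 10.70, 10.42 and 10.71 in VD(+) replicates 1 to 3 and 10.54 and 10.59 in the pools, and at 10.47, 10.47 and 10.78 in VD(−) replicates 1 to 3 and 10.65 and 10.58 in the pools (log2 fold change −0.0016, SE 0.085). Car1 and Car2, the carbonic anhydrases of red cells, had −0.12 (SE 0.10) and −0.016 (SE 0.075). Car2 also serves osteoclasts, of whose 9 markers 6 were above 0 (median 0.079, Ocstamp 0.54 and Atp6v0d2 1.02, mean level 5.52 to 6.12 in VD(+) and 5.76 to 6.13 in VD(−)), and their part was not tested. Trim10, a TRIM protein of erythroblasts, had −0.15 (SE 0.11), and Hemgn, hemogen, a nuclear protein of erythroid cells, had 0.093 (SE 0.075).

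Arrays of the same group differed by more than the groups did for most members, with a median pooled SD of 0.16 against a median absolute log2 fold change of 0.083, and many members shared their high and low arrays. VD(+) replicate 2 and VD(−) replicate 2 were each among the lowest 3 of the 10 arrays for 24 of 34 members, and VD(−) replicate 1 for 18. VD(−) replicate 3 was among the highest 3 for 21 members, and VD(+) replicate 3 and VD(+) pool 2 for 18 each. The mean log2 value over the 34 members lay between 8.88 and 9.11 in VD(+) and between 8.88 and 9.13 in VD(−), so the groups covered the same range. Over all genes the median pooled SD was also 0.16, and the median absolute log2 fold change was 0.079.

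The roles did not move as 1 block from array to array. In VD(+) replicate 1 the membrane genes stood 0.15 above their 10-array mean, while surface proteins stood at −0.058 and receptors at −0.21. Markers of neutrophils, an abundant lineage of marrow, were highest in the same arrays that were lowest in erythroid members, at 0.25 above their mean in VD(−) replicate 2 and 0.12 above it in VD(+) replicate 2. Their mean level was 11.13 to 11.35 in VD(+) and 11.05 to 11.47 in VD(−), and their part in the erythroid values was not tested. B cell markers stood at −0.71 in VD(−) replicate 3, the highest array for erythroid members, at −0.43 in VD(−) replicate 2, among the lowest, and at 0.53 in VD(−) pool 1, and their part was not tested.

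**Figure D3:**
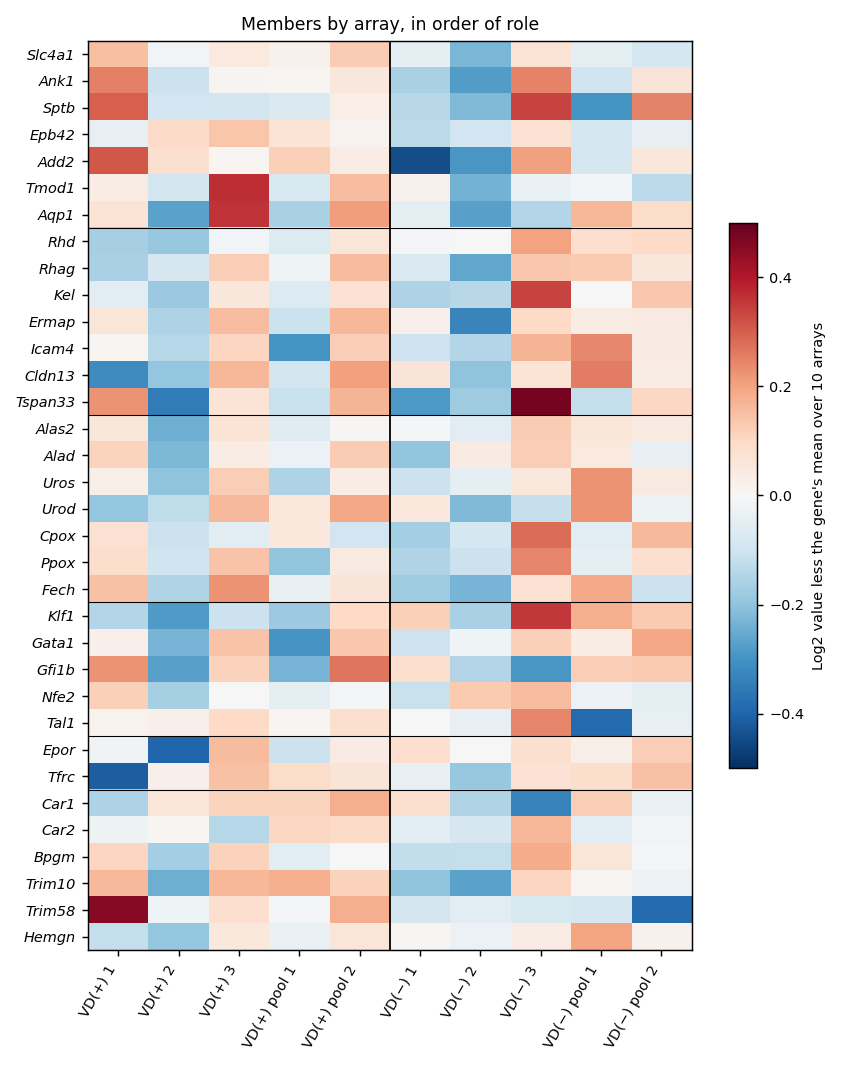
Log2 value of each member less its mean over the 10 arrays, on a colour scale from −0.5 (blue) to 0.5 (red), with members in rows by role and arrays in columns. VD(+) 2 and VD(−) 2 are blue for most members and VD(−) 3 is red for most, with no split along the line between the groups.

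**Figure D4:**
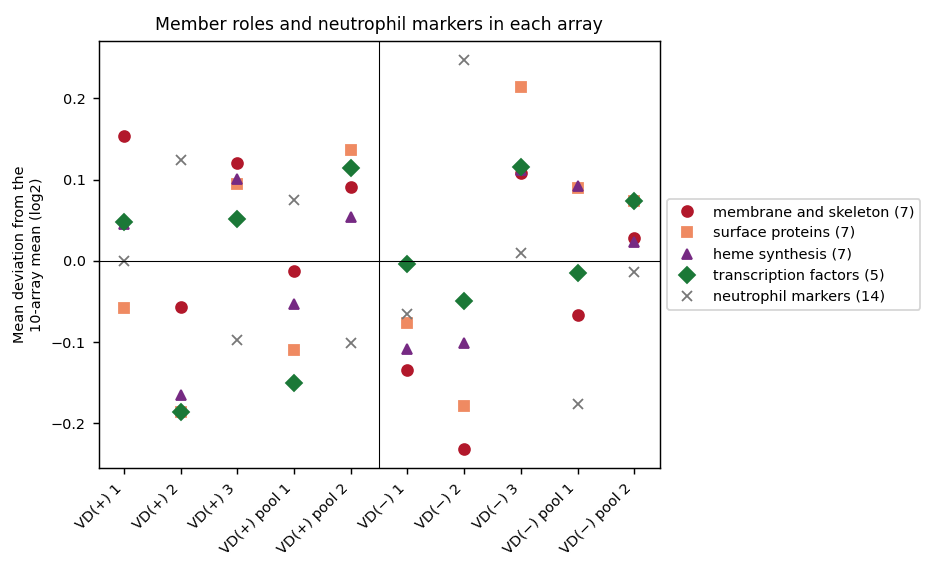
Mean deviation of 4 roles and of neutrophil markers from their 10-array mean (log2, vertical axis) in each array (horizontal axis), with the number of genes in brackets. Neutrophil markers stand highest in VD(−) 2 and VD(+) 2, where the surface proteins stand lowest.

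Of 94 other erythroid genes 82 were measured, of which 0 passed an adjusted p and 8 a nominal p, 3 upward and 5 downward, or 9.76%, with a median of −0.036. Of all genes 7.00% passed a nominal p, 4.05% upward and 2.95% downward, which is also the background of the lists that follow. Of 18 other membrane and surface genes 3 were lower at a nominal p, of 21 other heme and iron genes 2 were higher and 1 lower, of 22 other regulators 1 was lower, and of 18 red cell enzymes and maturation genes 0 passed. In the same order, 12, 5, 18 and 10 genes of these lists were below 0, with medians of −0.037, 0.050, −0.076 and −0.030. Adult globin genes share probe sets that list several genes and were not analysed here.

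Slc25a37, mitoferrin-1, which carries iron into mitochondria for heme, had the smallest nominal p of all these. Its log2 value was 10.43 to 10.88 in VD(+) and 10.04 to 10.50 in VD(−), and the groups differed by −0.38 on the log2 scale (SE 0.11, unadjusted p = 0.00530 and adjusted p = 0.477 from limma). It lies on chromosome 14, followed in gene order by Synb (−0.32, SE 0.13) and then Entpd4 (−0.89, SE 0.11, adjusted p = 0.0177 from limma). Blvra, a biliverdin reductase, and Ftl1, the ferritin light chain, had 0.26 (SE 0.12) and 0.14 (SE 0.060) at a nominal p, and macrophages that recycle red cells use these genes as well. The macrophage markers named above had a mean level of 6.95 to 7.52 in VD(+) and 7.35 to 7.84 in VD(−), and their part was not tested.

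Of the other membrane genes, Cd59a, which shields cells from complement, had −0.61 (SE 0.20), Art4, which carries the Dombrock antigens, −0.21 (SE 0.081) and Bcam, the Lutheran protein, −0.28 (SE 0.11), all at a nominal p. E2f2, a cell cycle factor of late erythroblasts, had −0.21 (SE 0.088), at a nominal p, and Lyl1, a relative of Tal1, 0.16. Aldoa, a glycolytic enzyme, and Ypel4 had 0.18 and −0.21. Hbb-y, an embryonic beta-like globin, had 0.55 (SE 0.21, unadjusted p = 0.0252 and adjusted p = 0.635 from limma), but its log2 values of 3.73 to 4.45 in VD(+) and 3.89 to 4.96 in VD(−) are low, with both group means under the median of all probe sets, and no background level was measured here. Hbb-bh1, another embryonic globin, had −0.087 (SE 0.14) at similarly low values.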

How the data were processed

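The deposited table holds log2 values of 35556 probe sets on 10 arrays, which the authors made in Partek with RMA, a method that corrects background, makes array distributions alike and sums probes per probe set. It removes differences in total RNA between arrays. The sources used here give no filter, and 0 columns went unused. Names came from the annotation of the array: 21789 probe sets list 1 gene, 1621 several and 12146 none, and only the first kind was named, with the highest mean per gene (19938 genes). All 34 measured members matched a current gene table by identifier.

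VD(−) and VD(+) were compared with limma 3.58.1 (R 4.3.3), as a two-sided test over all probe sets with Benjamini-Hochberg adjustment over them. Standard errors and 95% intervals are limma's moderated ones. The exact permutation test used the 252 splits of 5 against 5, unadjusted. Members and lists were chosen with earlier results of these data known. Every member was given a value, and the arrays are listed for those with the smallest and largest nominal p of each role. Of each other list the 2 genes with the smallest nominal p were named where a result touched the list. Blvra, Art4, the B cell markers above 0 and the genes that follow Slc25a37 were added after their values were seen. The fit was tested on simulated data. Alternatives were the methods' t-test, brighter probe sets, cyclic loess, quantile normalization, array weights, a trended and robust spread, pool as covariate, singles or pools alone, the replicate number as a block, Y-linked genes less Xist as covariate, arrays without Y-linked signal, averaged probe sets per gene, probe sets with 1 gene, and leaving out each array. The number of arrays limits the precision. Promoters came from RefSeq, build GRCm38.p6.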

Additional observations from a re-analysis of the deposited data

Results flagged for a closer look

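In 5 of 68 sets of 5 arrays (34 members in each group), the highest or lowest array stood far from the other 4 by Dixon's ratio, which chance does in about 1 of 20 sets. Ermap was at 9.11 in VD(−) replicate 2 and at 9.47 to 9.54 in the other VD(−) arrays. Tfrc was at 9.998 in VD(+) replicate 1 and at 10.43 to 10.56 in the rest of its group. Car2 was at 11.45 in VD(−) replicate 3 against 11.20 to 11.27. Trim10 was at 8.80 in VD(+) replicate 2 against 9.16 to 9.22. Trim58 was at 5.82 in VD(−) pool 2 against 6.11 to 6.15, and without that array its log2 fold change was −0.21 and no longer at a nominal p.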

How the results depend on the processing

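No member passed an adjusted p under any of the 24 alternatives, and 13 of 34 members, Klf1, Trim58, Slc4a1 and Rhd among them, kept their sign in all of them. The t-test, brighter probe sets, trended spread, pool covariate, replicate block and 1-gene probe sets leave the fold change as it was. A sign could not change there. The median over members stayed within 1 SD of the array means each time. The number of members at a nominal p was 2 in the comparison as reported, or 5.88%. By the methods' t-test it was 5, or 14.7% of the members, where 7.56% of all genes passed. With a trended and robust spread it was 4, or 11.8%, where 6.82% of all genes passed. It was 1, or 2.94%, after cyclic loess (6.96% of all genes) and with array weights (7.00%). The same held with a covariate of sex signal (Y-linked genes less Xist, 7.60%) and in arrays without Y-linked signal (5.72%). It was 0 in singles alone (3.47%) and in pools alone (3.20%). Leaving out an array gave 0 to 4 members, with 0 without VD(−) pool 2 (5.64%) and 4, or 11.8%, without VD(−) replicate 3 (7.52%). The t-test added Slc4a1, Epb42 and Rhd, and the trended spread Slc4a1 and Rhd. Car1 had −0.29 with the sex covariate and −0.30 in arrays without Y-linked signal, both at a nominal p. It was the 1 member counted in these 2 settings, and Klf1 and Trim58 passed in neither. The number of other erythroid genes at a nominal p, 8 as reported, was 2 in singles, 1 in pools, 4 in arrays without Y-linked signal and 4 to 7 on leaving out an array. Same-numbered arrays of the groups had correlations of −0.10 to 0.12 in their deviations, and 1 of 5 numbers matched best with itself. With only 5 numbers, these values cannot decide whether the numbers pair the arrays. The mean deviation over members was −0.139 in VD(+) and −0.138 in VD(−) for replicate 2, and 0.093 and 0.113 for replicate 3. For pool 2 it was 0.097 and 0.032. It differed in sign for replicate 1 (0.036 and −0.076) and pool 1 (−0.050 and 0.032). With the replicate block 2 members and 5 other erythroid genes were at a nominal p (6.18% of all genes). The causes were not tested, but fits with fewer arrays have less power.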
